A study of Homo sapiens with 14 samples.

Results

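The sites described here are the EED peaks of control DU145 cells that lie on the repressive histone mark H3K27me3. They were chosen by position: a peak of the control EED list that shared at least 1 bp with a peak of the control H3K27me3 list. The rule selected 707 of 13082 EED peaks, 5.40% (Clopper-Pearson interval 5.02 to 5.81), and left 12375 other EED peaks for comparison. The data are 14 lists of peaks from chromatin immunoprecipitation with sequencing (ChIP-seq), 1 library for each of 7 antibodies in each of 2 lines derived from DU145 (an established cell line from a human prostate tumour). Control cells carried a scramble construct and knockdown cells a stable EED knockdown, both under puromycin selection. All knockdown titles carry the construct label sh3, so the construct and the loss of EED cannot be told apart, and no source used here says whether a line is a clone or a pool. The antibodies recognised EED, RING1A, RING1B, BMI1, H3K27me3 and ubiquitylated histone H2A (uH2A, by a rabbit and a mouse antibody).

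EED is the subunit of Polycomb repressive complex PRC2 that binds trimethylated H3K27 and holds the catalytic subunit in its active form. PRC2 places H3K27me3, and the mark is bound in turn by CBX proteins of the second complex, PRC1. RING1A and RING1B are alternative ubiquitin ligases within PRC1 and pair with BMI1, and uH2A is the mark they write. A site with both EED and H3K27me3 is thus the textbook form of a PRC2 target, and the presence of PRC1 and uH2A there is what the Polycomb model predicts for a repressed domain.

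The EED list, the check of the knockdown itself, held 13082 peaks in control and 1372 in knockdown cells. List sizes ran from 1372 to 56011 peaks, and sequencing depth is unknown because no source used here gives read totals. With 1 library in each group, the differences have no replicate check, and no p-value was computed. Intervals are at the 95% level, treat peaks as independent and cover counting error only. EED and both uH2A antibodies form 1 set of libraries by their culture description and chromosome naming, and RING1A, RING1B, BMI1 and H3K27me3 form the other. Some places of the genome gave extreme signal with several antibodies. High-signal windows were 100-kb windows where 2 or more antibodies, EED not counted, had a peak more than 10-fold taller than its list's median, plus the adjoining windows. These windows, built from peaks of both cell lines, held 50 of the sites, 7.07%, against 0.760% of the other EED peaks. Except for EED, the antibodies compared helped to define them. Where control peaks of another antibody were followed into knockdown cells, that antibody was left out and EED was counted. The windows used there thus differ by antibody. Values without high-signal windows are given where they moved by over 1.5-fold. Coordinates are hg19, and no gene or sequence is named because no annotation or sequence of that build was used here.

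The sites were somewhat longer and taller EED peaks than the rest. Their median length was 175 bp (range 75 to 1175) against 125 bp for the other EED peaks, and their median height 35.2 against 32.4, in the signal units of the authors' peak caller. The H3K27me3 peaks under them were 680 of the 35368 in the control list, with a median length of 375 bp against 200 bp for the remaining 34688. A length of 1000 bp or more was found in 21.3% of these 680 and in 3.87% of the remaining peaks. Most sites were embedded in the mark: 463 of 707 lay wholly inside H3K27me3 peaks, 684 touched a single H3K27me3 peak, and the median shared length was 125 bp. Within 5 kb of the site centre, control H3K27me3 peaks covered a median of 1925 bp, and within 50 kb a median of 5575 bp. These values come from the 2 lists that defined the sites and are a description only.

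At the edge of the rule, 23 sites shared only 25 bp with H3K27me3. The tallest of these lay on chromosome 2 at 91808351 to 91808675 (height 54.5), chromosome 1 at 148534076 to 148534300 (height 51.4) and chromosome 15 at 21927926 to 21928350 (height 51.4). Just outside it, 33 other EED peaks touched H3K27me3 or lay within 25 bp of it. The tallest of those that touched it without sharing a base were on chromosome 9 at 68413676 to 68413900 (height 54.8), chromosome 19 at 3244801 to 3245350 (height 52.3) and chromosome 15 at 99193876 to 99194025 (height 37.6).

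The first comparison asked whether PRC1 proteins and uH2A occurred at EED sites on H3K27me3 more often than at other EED sites of control cells. They did for all 5 antibodies, and RING1B differed most in relative terms. RING1B peaks lay on 193 of the 707 sites, 27.3% (24.04 to 30.7), and on 3.96% of the other EED peaks, a 6.89-fold ratio. The 2 shares differed by 23.3 percentage points (20.2 to 26.8 by Newcombe's method). The share over all EED peaks was 5.22%. BMI1, the partner of the ligases, lay on 55.6% of the sites and 25.9% of the other peaks, a difference of 29.7 points (25.9 to 33.4) beside 27.5% over all EED peaks. RING1A lay on 59.1% and 35.0%, a difference of 24.1 points (20.4 to 27.8) beside 36.3% over all EED peaks.

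The product of PRC1 followed the same direction. The uH2A rabbit antibody marked 545 sites, 77.1%, and 49.2% of the other EED peaks, a difference of 27.9 points (24.5 to 31.0) beside 50.7% over all EED peaks. The uH2A mouse antibody marked 370 sites, 52.3%, and 32.8% of the others, a difference of 19.6 points (15.8 to 23.3) beside 33.8% over all. The differences were above 0 for both antibodies that share the library set of EED and for the 3 that share the set of H3K27me3. Within 4 classes of EED peak length the 5 differences were 24.2 points for BMI1, 22.0 for RING1B, 21.3 for uH2A rabbit, 20.1 for RING1A and 15.0 for uH2A mouse. Outside high-signal windows defined at 5 times the median height, a choice added after the data were seen, the RING1B difference was 11.8 points.

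**Figure D1:**
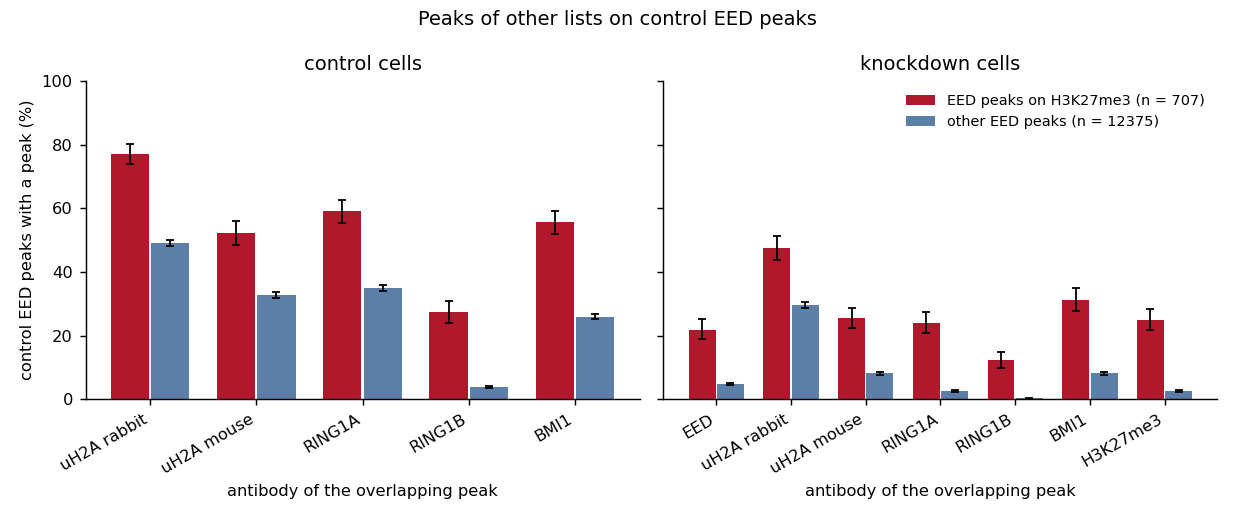
Percent of control EED peaks that overlap a peak of each antibody in control cells (left) and in knockdown cells (right), for the 707 EED peaks on H3K27me3 (red) and the 12375 other EED peaks (blue). Bars are shares and whiskers are 95% Clopper-Pearson intervals. In control cells RING1B shows 27.3% against 3.96%, and in knockdown cells all 7 antibodies are higher at the sites on H3K27me3. Control H3K27me3 chose the sites, so the knockdown H3K27me3 bars are a description.

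The antibodies combined in a few recurrent patterns. All 5 of the other antibodies met at 111 sites, 15.7% (13.1 to 18.6), against 1.90% of the other EED peaks, and none of the 5 was found at 54 sites, 7.64%, against 29.6%. The most frequent pattern was uH2A rabbit without any of the other 4, at 116 sites, 16.4% against 19.7% of the other EED peaks. The full set of 5 came next with 111, followed by both uH2A antibodies with RING1A and BMI1 but no RING1B, at 100 sites, 14.1% against 7.91%. At least 1 PRC1 protein and at least 1 uH2A antibody were present together at 460 sites, 65.1% against 34.1% of the other peaks. A uH2A peak without PRC1 was found at 150 sites, 21.2% against 27.3%, and PRC1 without uH2A at 43, 6.08% against 8.95%. Of the 193 sites with RING1B, 188 had BMI1 (97.4%) and 164 had RING1A (84.97%), shares close to the 96.5% and 84.5% at other EED peaks with RING1B.

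Peaks of the other antibodies were also taller within their own lists at these sites than at other EED sites. The median height percentile of uH2A mouse peaks was 91.7 at the sites on H3K27me3 and 76.7 at other EED sites, and that of RING1A 91.0 and 73.6. For RING1B it was 86.0 and 64.6, for BMI1 84.9 and 63.6, and for uH2A rabbit 83.4 and 76.1. The sites thus held a high-ranking part of each list, although they held few of its peaks, from 0.736% of the RING1A list to 3.76% of the RING1B list.

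The shares of EED peaks with RING1A, RING1B, BMI1 and uH2A rabbit fell with distance from the nearest control H3K27me3 peak. For the PRC1 proteins RING1A, RING1B and BMI1 the first step was the largest. RING1B lay on 27.3% of EED peaks on the mark, 12.2% of the 343 within 1 kb of it, 9.06% of the 1336 at 1 to 10 kb, 4.60% of the 4148 at 10 to 100 kb and 2.08% of the 6548 farther away. The 2 uH2A antibodies differed at the border. The rabbit antibody went from 77.1% on the mark to 73.2% within 1 kb, 66.0% at 1 to 10 kb and 41.5% beyond 100 kb. The intervals on the mark (73.8 to 80.1) and within 1 kb (68.2 to 77.8) overlapped for uH2A rabbit and did not for RING1B (24.04 to 30.7 and 8.97 to 16.2). The mouse antibody went from 52.3% (48.6 to 56.1) to 37.0% (31.9 to 42.4) within 1 kb, then stood at 34.1%, 35.6% and 30.5%. BMI1 stood at 55.6%, 35.3%, 33.2%, 27.3% and 22.97% over the same 5 distances, and RING1A at 59.1%, 40.8%, 38.2%, 37.4% and 32.5%. Their intervals on the mark and within 1 kb did not overlap either. They were 51.8 to 59.3 and 30.2 to 40.6 for BMI1, and 55.4 to 62.8 and 35.6 to 46.2 for RING1A.

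**Figure D2:**
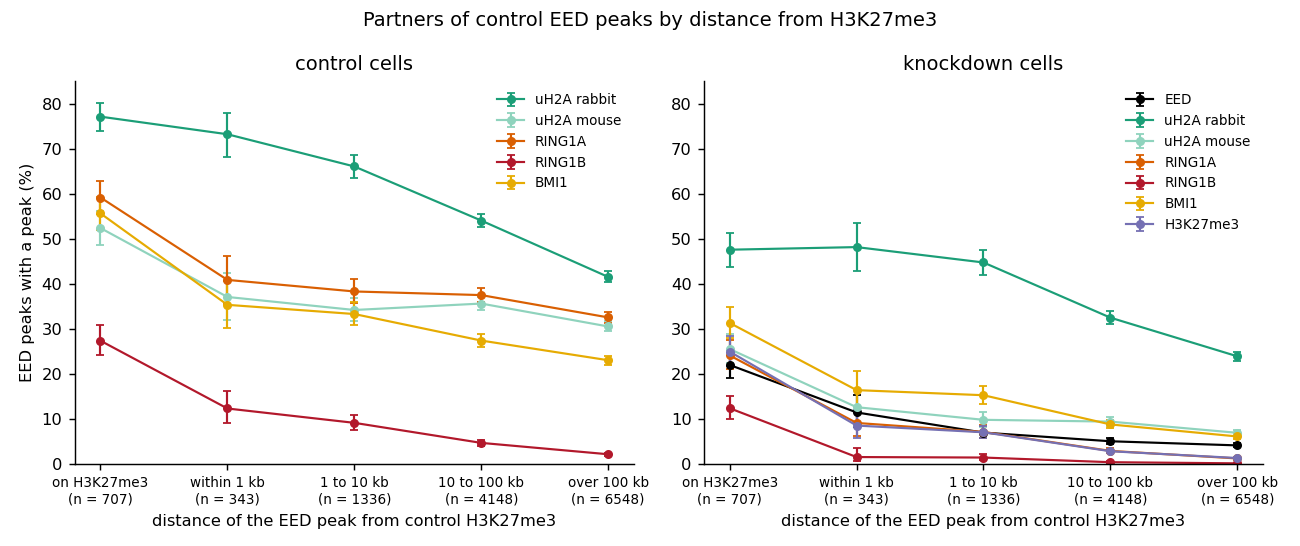
Percent of control EED peaks with a peak of each antibody in control cells (left) and knockdown cells (right), in 5 classes of distance from the nearest control H3K27me3 peak; points are shares and whiskers 95% Clopper-Pearson intervals. RING1B falls from 27.3% on the mark to 2.08% beyond 100 kb, and knockdown H3K27me3 from 24.9% to 1.24%. Control H3K27me3 set the classes, so the knockdown H3K27me3 points are a description.

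Coverage was also followed along the genome. Control EED and H3K27me3 coverage come from the lists that chose the sites and are a description: control H3K27me3 peaks covered 86.7% of the site centres, 32.7% of positions 1 kb to either side, 13.4% at 5 kb and 11.2% at 10 kb. The other antibodies, which the rule did not use, were found mostly near the centre. BMI1 covered 50.6% of the centres and 8.91% of positions 1 kb away, RING1A 50.4% and 12.02%, and uH2A rabbit 74.3% and 8.06%. EED peaks themselves covered 3.61% of positions 1 kb from the centre. In knockdown cells H3K27me3 covered 22.3% of the centres and 5.73% of positions 1 kb away. At sites outside high-signal windows these were 16.6% and 2.59%.

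**Figure D3:**
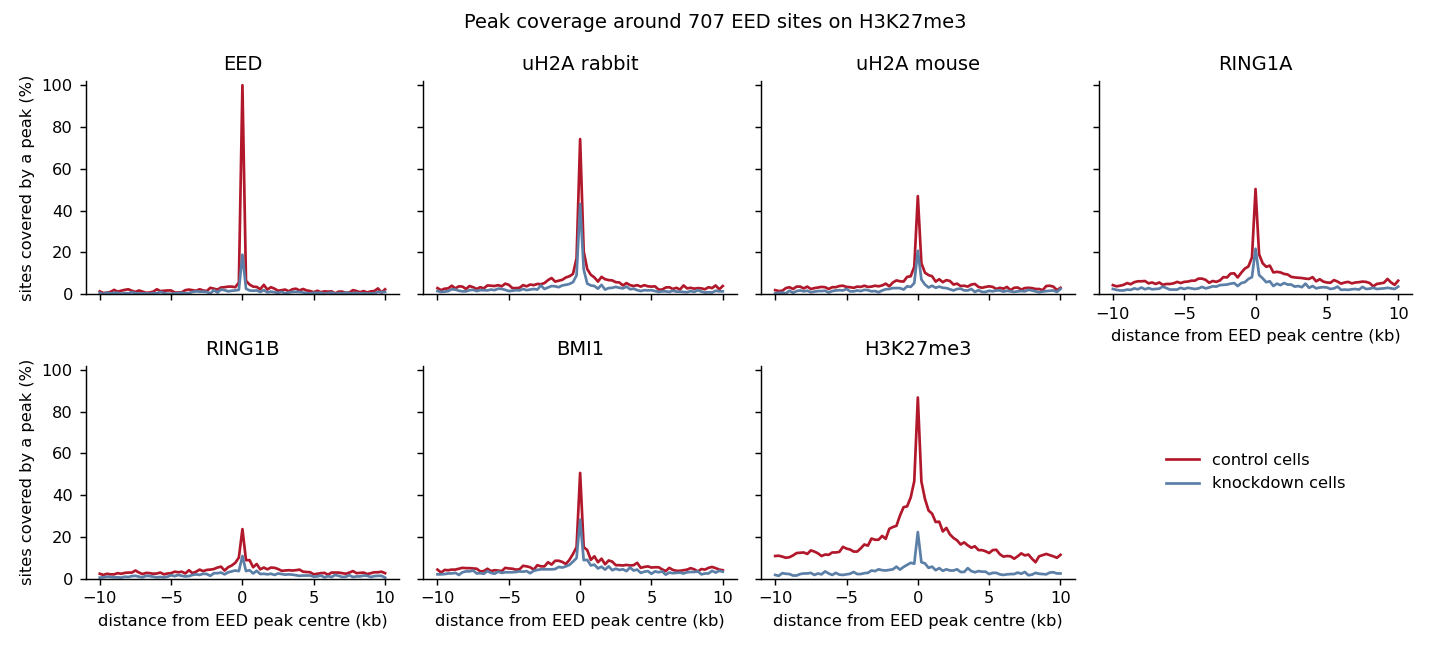
Percent of the 707 sites covered by a peak of each antibody (7 panels) at each distance from the centre of the control EED peak, in control (red) and knockdown cells (blue). Control EED (100% at the centre) and control H3K27me3 chose the sites, so their curves are a description; H3K27me3 covers 86.7% of centres and 32.7% of positions 1 kb away in control cells, against 22.3% and 5.73% in knockdown cells.

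The second comparison asked what remained at these sites once EED was knocked down. Most lost both defining signals: 493 of 707 sites, 69.7% (66.2 to 73.1), had neither an EED nor an H3K27me3 peak in knockdown cells. The share with neither was 93.9% at the other EED peaks. Both were present at 117 sites, 16.5% against 1.30%, and H3K27me3 without EED at 59, 8.35% against 1.26%. EED without H3K27me3 was found at 38 sites, 5.37% against 3.56%. The shares that involve H3K27me3 compare sites chosen for that mark with peaks that lacked it in control cells, and are a description. An EED peak was kept at 155 sites, 21.9% (18.9 to 25.2), against 4.86% of the other EED peaks and 5.79% of all EED peaks. This is a difference of 17.1 points (14.1 to 20.3), 12.1 points (9.40 to 15.2) outside high-signal windows and 8.84 points outside the wider windows at 5 times the median height. Of the 552 sites that lost EED, 24 had a knockdown EED peak within 1000 bp, 4.35% against 2.12% of the other EED peaks that lost it.

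H3K27me3 itself was found at 176 sites in knockdown cells, 24.9% (21.7 to 28.3), against 2.56% of the other EED peaks and 3.77% of all of them. The difference was 22.3 points (19.3 to 25.7), and 10.7 points outside the windows at 5 times the median height. The rule gave every site a control H3K27me3 peak and the other EED peaks none. This difference therefore follows in part from the choice of sites and is a description. Counted from the mark, 166 of the 680 H3K27me3 peaks under the sites were kept, 24.4% (21.2 to 27.8), while 3.40% of the remaining H3K27me3 peaks were, beside 3.81% over the whole list. That difference of 21.0 points (17.9 to 24.4) was 10.4 points outside the windows at 5 times the median height. Most sites thus lost the mark, and the share that kept it was above that of the whole list.

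PRC1 proteins in knockdown cells showed the same direction at lower levels. BMI1 lay on 31.3% of the sites and 8.20% of the other EED peaks, a difference of 23.1 points (19.7 to 26.6) beside 9.45% over all EED peaks. RING1A lay on 24.05% and 2.56%, a difference of 21.5 points (18.5 to 24.8) beside 3.72% over all. RING1B lay on 87 sites, 12.3% (9.97 to 15.0), and on 40 of the 12375 other EED peaks, 0.323%, beside 0.971% over all. The RING1B difference of 11.98 points (9.76 to 14.6) was 5.94 points outside high-signal windows, which held 46 of the 87 sites, and 3.12 points outside the wider ones. Outside the wider windows the differences were 12.6 points for BMI1 and 10.1 for RING1A.

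Of the 7 antibodies, uH2A rabbit was the one most often found at these sites in knockdown cells, and uH2A mouse stood below BMI1. The uH2A rabbit knockdown list was also the largest of the 7, at 11327 peaks, beside 7160 for uH2A mouse and 6257 for BMI1. The part of list size in this order was not tested. The rabbit antibody marked 336 sites, 47.5%, against 29.6% of the other EED peaks and 30.6% of all, a difference of 17.9 points (14.1 to 21.7) that was 9.39 among peaks of at least median control height, 11.5 within length classes and 11.4 within height classes. The mouse antibody marked 180 sites, 25.5%, against 8.15% and 9.08% of all, a difference of 17.3 points (14.2 to 20.7), and 10.99 points outside the windows at 5 times the median height. A uH2A peak with no knockdown peak of EED, H3K27me3 or any PRC1 protein was found at 226 sites, 32.0% against 28.0% of the other EED peaks. The same number of sites, 226, had no knockdown peak of any antibody, while 61.1% of the other EED peaks had none. Knockdown peaks of all 7 antibodies were present at 26 sites, 3.68% against 0.0646% of the other EED peaks. Of the 26, 8 lay outside high-signal windows. The 7 include H3K27me3, whose control peaks chose the sites.

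Peaks of each antibody could also be followed one by one. Of the RING1B control peaks, 43.3% at the sites were kept in knockdown cells, 7.20% at other EED peaks and 20.7% over the whole list, and the interval at other EED peaks (5.07 to 9.87) lay below the share of the list. The difference between sites and other EED peaks was 36.1 points (28.8 to 43.4), 21.2 points outside high-signal windows and 14.9 outside the wider ones. RING1A peaks were kept at 33.5%, 5.78% and 4.07%, with a difference of 27.7 points (23.3 to 32.5), 17.2 when overlaps had to cover 50% of the peak. BMI1 peaks were kept at 51.6%, 25.5% and 21.1%, with a difference of 26.1 points (20.8 to 31.3), 17.3 outside the wider windows, 15.03 within classes of BMI1 peak length and 15.1 within classes of height. The uH2A mouse peaks were kept at 47.8%, 23.2% and 10.7%, with a difference of 24.6 points (19.3 to 29.9), 15.9 outside the wider windows.

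The uH2A rabbit antibody was the exception. Its peaks were kept at 60.3% at the sites (56.0 to 64.5) and 55.8% at other EED peaks, with 28.8% over the whole list. The difference of 4.55 points (0.164 to 8.79) became 0.422 (-3.24 to 4.05) within classes of peak length and -1.63 (-5.23 to 1.99) within classes of peak height. It was -0.224 (-6.58 to 6.004) among peaks of at least median control height, and 11.05 with peaks counted within 1000 bp. For this antibody the difference between EED sites with and without H3K27me3 thus depended on the processing.

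**Figure D4:**
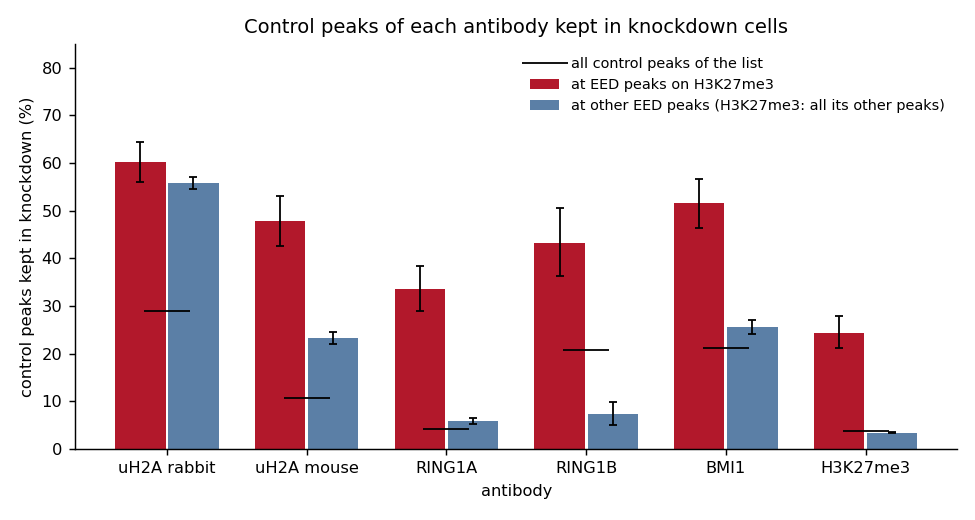
Percent of the control peaks of 6 antibodies that overlap a knockdown peak of the same antibody, at EED peaks on H3K27me3 (red), at other EED peaks (blue; for H3K27me3, all its other peaks) and over the whole control list (black line). Bars are shares with 95% Clopper-Pearson whiskers; RING1B shows 43.3%, 7.20% and 20.7%, and uH2A rabbit 60.3%, 55.8% and 28.8%.

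Some sites held a knockdown peak of an antibody that had none there in control cells. Of the 514 sites without control RING1B, 2 had it in knockdown cells, against 1 of 11885 other EED peaks. BMI1 appeared at 5 of 314 such sites, 1.59% against 1.70%, uH2A rabbit at 11 of 162, 6.79% against 3.93%, and uH2A mouse at 7 of 337, 2.08% against 1.29%. RING1A had a knockdown peak at 32 of the 289 sites that lacked one in control cells, 11.1% (7.70 to 15.3), against 0.783% of the other EED peaks without control RING1A. Outside high-signal windows it was 23 of 280.

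The control partners of a site set apart those that kept EED, a comparison chosen after the values were seen. With control RING1B, 127 of 193 sites kept EED, 65.8% (58.6 to 72.5), and without it 28 of 514 did, 5.45% (3.65 to 7.78), a difference of 60.4 points (53.0 to 66.9). With control BMI1, 151 of 393 sites kept EED, 38.4%, and without it 4 of 314, 1.27%, a difference of 37.1 points (32.1 to 42.1). RING1A gave 29.4% and 11.1%, a difference of 18.4 points (12.5 to 23.9). The uH2A mouse mark gave 28.1% and 15.1%, a difference of 13.0 points (6.92 to 18.9), and the uH2A rabbit mark 23.7% and 16.0%, a difference of 7.62 points (0.359 to 13.7). Within 4 classes of EED height, the interval included 0 in all 4 for both uH2A antibodies and in the 3 lower classes for RING1A. For BMI1 it included 0 in the second class from the lowest, at 7.02 points (-0.973 to 18.0). Where all 5 partners met, 76 of 111 sites kept EED, 68.5% (59.0 to 77.0), against 122 of 235, 51.9%, at other EED peaks with all 5. That difference was 16.6 points (5.45 to 26.7). Outside high-signal windows it was 9.82 points, with an interval that included 0 (-2.58 to 21.4). Outside the windows at 5 times the median height it was 20.0 points (4.99 to 33.1).

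The RING1B difference was found outside the windows of extreme signal as well, at 52.6 points (44.1 to 60.5) for 10 times and 53.6 points (43.0 to 63.4) for 5 times the median height. It was above 0 in all 4 classes of EED height, from 22.0 points (6.96 to 43.1) in the third class to 64.7 (55.0 to 72.2) in the tallest, with 8, 15 and 22 sites with RING1B in the 3 lower classes. At other EED peaks RING1B gave 37.1% and 3.53%, a difference of 33.6 points. The gap at sites on H3K27me3 was larger than at other EED peaks by 26.7 points (18.2 to 34.5) for RING1B. The excess was 24.3 points (19.1 to 29.4) for BMI1 and 11.7 points (5.79 to 17.3) for RING1A. Its interval included 0 for uH2A rabbit (2.39, -4.91 to 8.57), uH2A mouse (5.90, -0.232 to 11.9) and all 5 together (7.25, -4.24 to 17.7). Outside high-signal windows the excess was 17.6 points (7.91 to 26.7) for RING1B, 17.1 for BMI1 and 7.96 for RING1A. These excesses are in percentage points and depend on that scale. Over all peaks, RING1A gave 29.4% and 11.1% at the sites and 9.17% and 2.55% at other EED peaks. As a ratio, the RING1A gap was thus smaller at the sites, while those of RING1B and BMI1 were larger. Without control BMI1, EED was kept at 1.27% of sites on the mark and 1.55% of other EED peaks, a difference of -0.274 points (-1.10 to 1.69). Without control RING1B it was kept at 5.45% and 3.53%, a difference of 1.91 points (0.226 to 4.25).

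Knockdown H3K27me3 followed the same partners. It lay on 151 of the 193 sites with control RING1B, 78.2% (71.7 to 83.8), and on 25 of the 514 without, 4.86%. At other EED peaks, which had no control H3K27me3 peak, knockdown H3K27me3 was found on 244 of 490 with control RING1B, 49.8% (45.3 to 54.3), and on 73 of 11885 without, 0.614%. RING1B, BMI1 and H3K27me3 belong to the same library set, and the part of that set in this pattern was not tested. Of the 116 sites with uH2A rabbit alone, 68 kept the uH2A rabbit peak, 58.6% against 60.6% of the other EED peaks with that pattern. EED was kept at 1 of the 116, 0.862% against 2.26%, and 2 had H3K27me3 in knockdown cells.

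**Figure D5:**
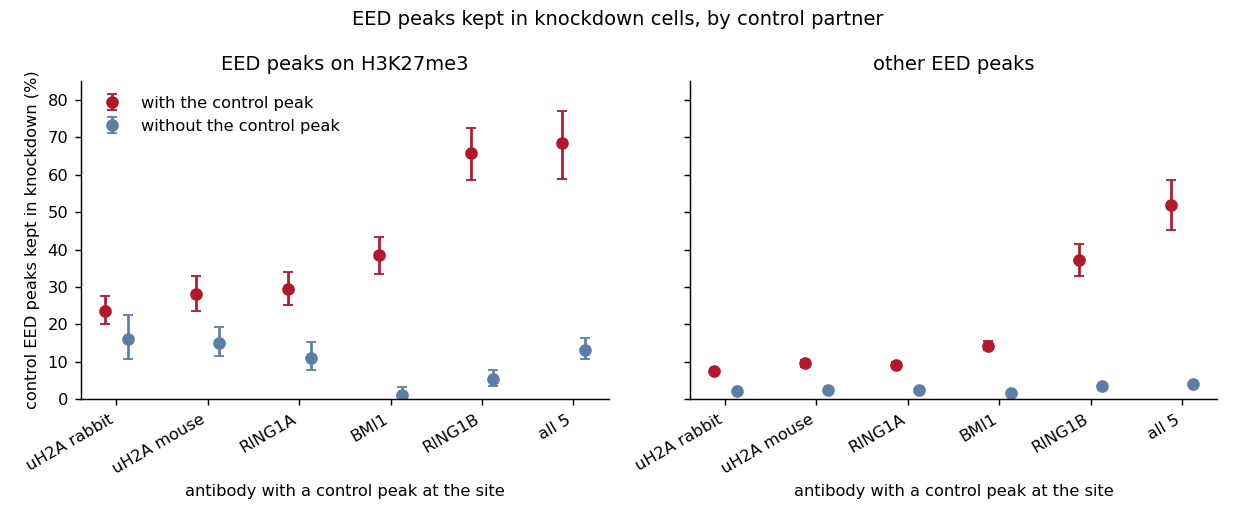
Percent of control EED peaks kept in knockdown cells when a control peak of the named antibody was present (red) or absent (blue), for EED peaks on H3K27me3 (left) and other EED peaks (right); "all 5" means uH2A rabbit, uH2A mouse, RING1A, RING1B and BMI1 together. Points are shares with 95% Clopper-Pearson whiskers; on H3K27me3, RING1B separates 65.8% from 5.45%.

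Kept sites were also the tall ones. The median control EED height was 54.7 at the 155 sites that kept EED and 33.3 at the 552 that lost it, and the median lengths were 250 and 150 bp. When the sites were ranked by EED height into 4 equal groups, 4.52%, 5.08%, 15.9% and 62.1% kept EED from the lowest group to the tallest, which held 110 of the 155. Control RING1B was present in 8.47%, 9.60%, 26.7% and 64.4% of the same groups. Height and RING1B thus moved together at these sites.

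The length of the underlying H3K27me3 peak pointed the other way. The 184 sites whose longest H3K27me3 peak was 1000 bp or more kept EED at 16.3% and the 523 others at 23.9%, a difference of -7.60 points (-13.6 to -0.658). Outside high-signal windows it was -6.56 points (-12.1 to -0.0381), an interval that barely excluded 0. Outside the windows at 5 times the median height it was -2.78 points (-8.13 to 3.75), so that no difference was shown there. The sites on long peaks had uH2A more often, with 88.0% against 73.2% for the rabbit and 67.4% against 47.0% for the mouse antibody in control cells. In knockdown cells uH2A rabbit was found at 63.0% of sites on long peaks and 42.1% of the others, a difference of 21.0 points (12.6 to 28.8). RING1A was also more frequent on long peaks in control cells, at 66.8% against 56.4%, a difference of 10.4 points (2.21 to 18.1). For RING1B and BMI1 the intervals included 0, with differences of -3.84 points (-10.8 to 3.80) and -0.206 points (-8.56 to 7.999).

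The sites were spread unevenly, with 5.40% of EED peaks over the whole genome. Chromosome 14 held 118 of the 707, 9.17% of its EED peaks (7.65 to 10.9), chromosome 1 held 87 (9.79%), chromosome 4 held 48 (9.56%), chromosome 9 held 54 (6.82%) and chromosome 5 held 56 (4.82%). The lowest share on an autosome was 3 of 139 on chromosome 13, 2.16% (0.447 to 6.18). When sites within 100 kb were chained, they formed 375 stretches, 258 of a single site and 24 of 5 or more, the latter with 219 sites in all. Neighbouring sites are therefore not independent, and intervals over sites are too narrow to that extent. Counting only the tallest EED peak of each 100-kb window in each set, an alternative added after the data were seen, the difference in kept EED was 14.7 points.

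The stretches with the most sites differed in how much H3K27me3 coverage remained in knockdown cells. On chromosome 2 at 91759526 to 91872875, 20 sites lay within 113350 bp, 18 of them with control RING1B and 4 with knockdown RING1B. There 15 kept EED and 18 had knockdown H3K27me3, which covered 14125 bp of the stretch in control and 11400 bp in knockdown cells. On chromosome 9 at 66454776 to 66513425, all 15 sites had control RING1B and 4 had it in knockdown cells. Of the 15, 7 kept EED and 14 had knockdown H3K27me3 (12050 and 8325 bp covered), while uH2A rabbit went from 14 sites to 4. All sites of these 2 stretches lay in high-signal windows at 5 times the median height.

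No H3K27me3 coverage remained on chromosome 18 at 34846276 to 35148300, where 19 sites lay among 152 control H3K27me3 peaks that covered 50500 bp. RING1B was present at 1 of the 19 and uH2A rabbit at 13, 1 site kept EED, and knockdown H3K27me3 covered 0 bp. On chromosome 14 at 33798476 to 34310225, 18 sites lay among 335 control H3K27me3 peaks covering 92650 bp, of which 400 bp were covered in knockdown cells, and 2 sites kept EED. A second stretch on chromosome 14, at 36981776 to 37132800, had 15 sites, of which 14 carried control uH2A mouse and BMI1. There 13 still carried uH2A mouse in knockdown cells, 2 kept EED, and H3K27me3 fell from 23700 to 425 bp. On chromosome 1 at 152954251 to 153417550, 15 sites kept EED in 2 cases, and H3K27me3 covered 46075 bp in control and 125 bp in knockdown cells. These 4 stretches lost nearly all H3K27me3 coverage.

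Kept sites were not confined to the stretches named. The 10 stretches with the most kept sites held 60 of the 155, and 81 of 375 stretches, 21.6%, held at least 1. Among the 258 sites that stood alone, 35 kept EED, 13.6%. Of the stretches with 5 or more kept sites, others lay on chromosome 4 at 49273026 to 49323475 (7 of 8 kept), at 27576 to 68125 (5 of 6) and at 49513426 to 49517100 (5 of 6), on chromosome 14 at 33326226 to 33557675 (5 of 8), and on chromosome Y at 58988701 to 59020825 (5 of 6). All sites of the chromosome 4 stretches that start at 49273026 and 49513426 lay in high-signal windows. No site of the stretches at 27576 and on chromosomes 14 and Y did, at 10 or 5 times the median height. From control to knockdown cells, H3K27me3 coverage went from 1800 to 6525 bp at 27576 and from 1925 to 9625 bp on chromosome Y. It went from 14575 to 18750 bp at 49273026 and from 3050 to 3375 bp at 49513426. On chromosome 14 it fell from 10100 to 1300 bp. Without an input or IgG library, a Polycomb site and a place that gives signal with any antibody cannot be told apart.

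Single sites show these patterns at full detail. By the rule for naming them (most bases shared with H3K27me3, most antibodies, or both EED and H3K27me3 in knockdown cells, all outside high-signal windows), the fullest was a site of 850 bp on chromosome 11 at 93970851 to 93971700. It lay inside an H3K27me3 peak of 1225 bp (93970551 to 93971775) and had a peak in all 14 lists. Its EED height was 89.4 in control and 90.9 in knockdown cells, near the top of the control EED list. Its control heights were 107 for uH2A rabbit, 172 for uH2A mouse, 394 for RING1A, 222 for RING1B, 396 for BMI1 and 244 for H3K27me3. In knockdown cells they were 55.6, 135, 116, 39.8, 213 and 150 in the same order. Heights are not normalised between libraries and show no change by themselves.

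The site with the most bases on H3K27me3, 1050 of 1175 bp, lay on chromosome 2 at 91762976 to 91764150, within the stretch of 20 sites. It carried all 7 antibodies in control cells and all but RING1B in knockdown cells, with EED heights of 84.5 and 79.7. Close to it in rank, a site of 775 bp on chromosome 1 at 145075326 to 145076100 lay wholly inside an H3K27me3 peak of 1225 bp and likewise lacked only RING1B in knockdown cells. On chromosome 22 at 20784676 to 20785575, a site with 875 of 900 bp on H3K27me3 had all 7 antibodies in control cells and kept EED, both uH2A marks and BMI1, but no H3K27me3. RING1A, RING1B, BMI1 and H3K27me3 are listed there with a height of 0, a value that only their library set contains.

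Chromosome 1 gave an example of a broad domain. A single H3K27me3 peak of 5825 bp at 152079726 to 152085550 held 9 EED peaks within 5450 bp. All 9 carried RING1A, BMI1 and uH2A mouse in control cells, 8 carried uH2A rabbit and 3 RING1B. In knockdown cells 1 of the 9 kept EED and 8 kept uH2A rabbit, and H3K27me3 covered 725 bp. The longest of these EED peaks, at 152083851 to 152084475, had a height of 76.4 in control cells, and the nearest knockdown EED peak was 100 bp away. A site on the same chromosome at 153021976 to 153022600, inside an H3K27me3 peak of 950 bp, went from 6 antibodies in control cells, all but BMI1, to uH2A rabbit alone.

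Among sites with both EED and H3K27me3 in knockdown cells, the tallest control EED peak was on chromosome 9 at 68426076 to 68426375. It had EED heights of 195 in control and 188 in knockdown cells, with RING1B and BMI1 in both. All sites of its stretch lay in high-signal windows at 5 times the median height. The next, on chromosome 5 at 3323776 to 3324400, had EED heights of 156 and 113 and carried every antibody except uH2A mouse in both cell lines. It shared only 75 bp with an H3K27me3 peak of 75 bp. On chromosome 14 at 51026676 to 51027200, a site of 525 bp wholly on H3K27me3 had EED heights of 95.7 and 53.9 and lacked only RING1B in knockdown cells. On chromosome 8 at 142955401 to 142955750, a site of 350 bp had EED heights of 94.4 and 36.9, and every antibody except uH2A mouse was present in both cell lines. A site on chromosome X at 108297351 to 108297675, 1 of the 9 EED peaks of that chromosome, had peaks in all 14 lists, again with a height of 0 in all lists of RING1A, RING1B, BMI1 and H3K27me3.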

How the data were processed

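Peak lists of 14 ChIP-seq libraries were used, 1 per antibody and cell line. The submitters' processing notes name Bowtie (version not given in the sources used) and the build hg19. HPeak appears in the names of the deposited lists. No source used here says whether peaks were called against input. Each deposited list gives position, length, an offset, a height and a score per peak. The height was taken as signal, as the authors' caller wrote it, and is not normalised between libraries as far as stated. A further column, a score as deposited, entered no comparison; the other deposited columns (start, end, length and offset) are in bp. Chromosome prefixes were removed, and the last numeric chromosome codes were assumed to mean X and Y. Overlap meant at least 1 bp. Control peaks were kept when a knockdown peak of the same antibody overlapped them. Shares carry Clopper-Pearson and differences Newcombe intervals, not adjusted for the number computed. Besides the 18 main differences, many more were computed by control partner, EED height class, H3K27me3 length and signal window. These are not adjusted either. Intervals over height or length classes and between gaps combine Newcombe intervals by squares. Regions were named by the largest shared length, the most antibodies, knockdown peaks of EED and H3K27me3, and the 4 largest stretches (with ties, 6); the stretch of 9 sites on chromosome 1 and the further stretches with kept sites were named after their values were seen. The sites, comparisons and naming rule were chosen with earlier results of these data known. Splits by control partner, H3K27me3 length and distance were added after values were seen. The functions were tested on simulated lists. Python 3.11.15, numpy 2.4.6, pandas 2.3.3, scipy 1.17.1 and matplotlib 3.10.9 were used.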

Additional observations from a re-analysis of the deposited data

How the results depend on the processing

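The 18 differences took 198 values under 11 alternatives, 8 planned and 3 added after the data were seen. Of these, 196 were above 0, and 192 were above 0 with an interval that excluded 0. The 192 include all 11 values for knockdown H3K27me3 at the sites against other EED peaks. Those are a description, because control H3K27me3 chose the sites. The 6 values not among the 192 all concern uH2A rabbit peaks kept at EED sites on H3K27me3 against other EED peaks. That difference of 4.55 points was 3.08 when 50% of a peak had to be covered, 3.83 without peaks of height 0, 3.85 outside high-signal windows and 0.422 within length classes, each with an interval that included 0. It turned to -0.224 among peaks of at least median control height and to -1.63 within height classes. The share of EED peaks on H3K27me3 was 4.71% when 50% of a peak had to be covered, 7.94% with peaks within 1000 bp, 4.73% outside windows at 5 times the median height, 4.33% with the tallest peak of each 100-kb window and 4.99% without chromosome 14. Windows at 5 times the median height lowered 11 of the 18 differences by over 1.5-fold. The cause was not tested. No paired analysis was possible because each group has 1 library. Depth is unknown, so a missing knockdown peak may be a peak too low to be called.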
